A study of Schistocerca gregaria with 20 samples.

Results

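The pleuropodia of the desert locust *Schistocerca gregaria* are a pair of appendages on the first abdominal segment of the embryo that form beside the hind legs and become glands. The transcripts described here are those that appeared in pleuropodia at day 7 of embryonic development. They were chosen from the deposited RPKM (reads per kilobase of transcript, scaled to the mapped reads of the library) by 3 conditions. A transcript had at least 20 RPKM in pleuropodia of day 7, at least 8 times its level in pleuropodia of each of days 4, 5 and 6, and at least 4 times its level in hind legs of day 7. Of the 12988 transcripts in the matrix, 220 met all of these conditions. The values of pleuropodia of days 4 to 7 and of legs of day 7 therefore chose the members, and they are given below as a description, without a test.

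The series followed pleuropodia and hind legs (T3, the third thoracic pair) through embryonic development, to see what the glands produce. Eggs were kept at 30 °C, and both kinds of appendage were dissected from embryos of days 4, 5, 6, 7, 8, 8-9, 10, 11, 12 and 13. Each of the 20 libraries was mRNA of many pooled appendages, with 1 library per tissue and stage, so that no stage had a biological replicate. For tests, libraries of neighbouring days were grouped: pleuropodia of days 8 and 8-9 (n = 2) and of days 10, 11 and 12 (n = 3), and legs of days 4, 5 and 6 (n = 3), of days 8 and 8-9 (n = 2) and of days 10, 11 and 12 (n = 3). The p-values therefore measure the spread between libraries of different days, which holds both technical error and any change with age. For day 8-9, pleuropodia and legs alike were sequenced at another centre than the rest.

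Pleuropodia begin as limb buds and lose the course of leg development under the Hox genes of the abdomen. Their cells stop dividing, enlarge, acquire large polyploid nuclei and turn into a secretory epithelium at about the time when the embryo completes dorsal closure. Before hatching the glands release enzymes that are known for digesting the serosal cuticle, the chitin-rich sheet that encloses the embryo. Chitin is a polymer of N-acetylglucosamine, and insects break it down with chitinases, which cut the chain, and hexosaminidases, which remove the end sugars.

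The depth recovered from the RPKM was 15186075 to 36027338 mapped reads in pleuropodia and 27890837 to 36884141 in legs, the lowest in either tissue being the library of day 8-9. Markers of the appendages were checked against the labels. abd-A, a Hox gene of the abdomen, had 17.2, 9.14, 2.22 and 1.20 RPKM in pleuropodia of days 4, 5, 6 and 7 and 0.273 to 2.09 RPKM in the later ones, against at most 0.272 RPKM in any leg library, so that from day 8 on it set the tissues little apart. Ubx, the Hox gene that both appendages express, had 176 RPKM in pleuropodia of day 4, against 59.0 RPKM in legs, and 28.8 RPKM in pleuropodia of day 7, against 121 RPKM in legs. Dll, a gene of appendage outgrowth, was present in all libraries of both tissues, and dac, a gene of the middle leg segments, had at most 3.31 RPKM in pleuropodia and at least 9.98 RPKM in every leg library. PPO2, a phenoloxidase made by haemocytes, was at 0.750 RPKM in pleuropodia of day 7, when the members had appeared. It had 462, 1041 and 2539.7 RPKM in pleuropodia of days 10, 11 and 12, against 187, 136 and 112 RPKM in legs of those days. Collagen (SgreTa0003175), the other transcript chosen as a marker of haemocytes, is itself a member and differed from PPO2 at day 7. It had 1.73 and 356 RPKM in pleuropodia of days 6 and 7, against 1.19 RPKM in legs of day 7. The part of haemocytes in the levels of the members was not tested, at day 7 or later. In whole appendages, fewer cells of a type and less RNA per cell cannot be told apart.

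Most members were close to absent in pleuropodia before day 6, although 3 had at least 20 RPKM at day 4 and 3 at day 5. The highest at both days was the tetraspanin SgreTa0007809, with 52.9 and 49.9 RPKM. The median level of the 220 in pleuropodia was 0.105, 0.328 and 1.42 RPKM at days 4, 5 and 6. At day 7 it was 82.2 RPKM, with a range of 20.1 to 5786 RPKM at that day. In pleuropodia of day 4, 54 of the 220 were listed at 0, against 1 at day 6 and none at day 7. A low level at day 6 was common, since 145 members had at least 2 times their day 5 level there, although 95 were still under 1 RPKM. The median fold of day 7 over the highest of days 4 to 6 was 50.4.

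The members then took up a large part of the RNA of the gland. They held 0.0726%, 0.117% and 0.397% of the summed RPKM in pleuropodia of days 4, 5 and 6, 12.5% at day 7, 19.6% at day 8 and 15.5% at day 8-9. At days 10, 11, 12 and 13 they held 24.5%, 32.3%, 32.1% and 30.9%, and their mean share over days 10 to 12 was 29.6% ± 4.43 (SD, n = 3). In legs the same transcripts held between 0.0842% (day 4) and 0.922% (day 11) in all 10 libraries. Without its 3 highest members in each library the share in pleuropodia of day 12 was 21.3%.

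**Figure D1:**
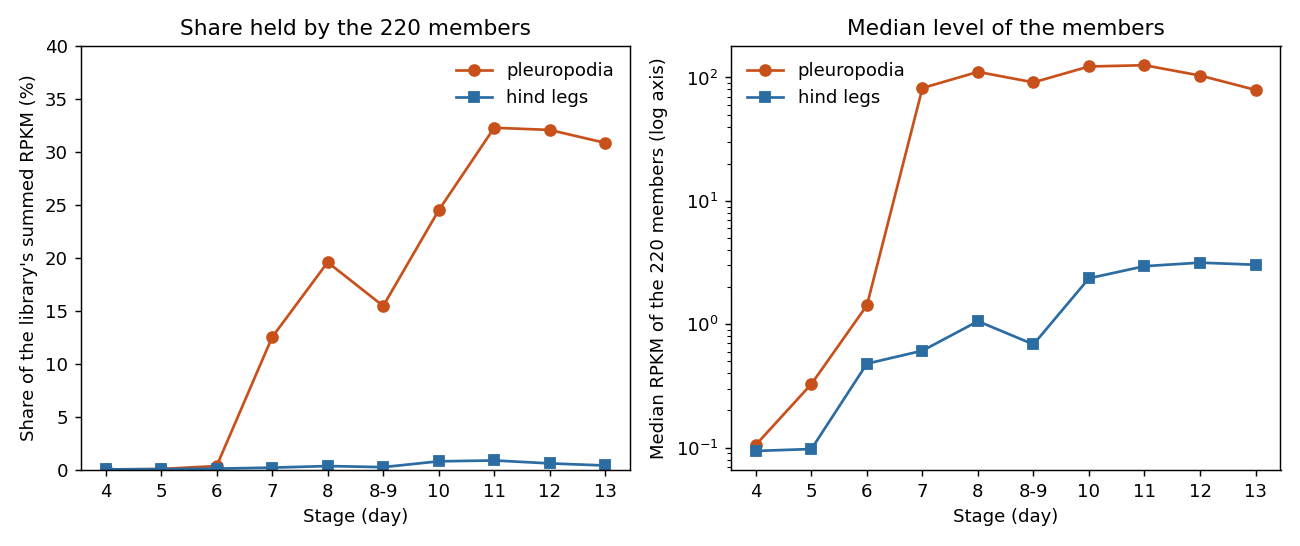
Left, share of the summed RPKM of a library held by the 220 transcripts, in percent, and right, their median RPKM on a log axis, by stage, with pleuropodia and hind legs as separate lines and 1 library per point. The share in pleuropodia is 0.397% at day 6, 12.5% at day 7 and 15.5% or more afterwards, while in legs it is at most 0.922%.

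The conditions drew sharp lines through a continuous range. The aminopeptidase N-like SgreTb0018983 entered with 20.1 RPKM at day 7 and SgreTa0015666 stayed out with 19.9 RPKM. By the fold over days 4 to 6, SgreTa0007775 entered at 8.25-fold and SgreTa0002370 stayed out at 7.86-fold. By the fold over legs, SgreTa0013495 entered at 4.54-fold and SgreTa0016819 stayed out at 3.99-fold. With thresholds of 40 RPKM, 16-fold and 8-fold 124 transcripts qualified, and with 10 RPKM, 4-fold and 2-fold 409 did.

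After day 7 the members did not follow a single course. In pleuropodia, 38 of the 220 had their highest level at day 7, 60 at day 8 or 8-9 and 112 at one of days 10 to 13, while 10 had it in a leg library. At day 8, 141 members were at or above their day 7 level, and at day 13, the last day before hatching that was sampled, 107 were. Through all 6 pleuropodia libraries of days 8 to 13, 155 stayed at least 8 times above their highest level of days 4 to 6. The selection used that earlier level and the share of all transcripts was not counted, so this number only describes the members. At day 13, 26 members were under 10% of their day 7 level, 13 were at least 10 times above it, and 9 were back at or below their highest level of days 4 to 6.

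**Figure D2:**
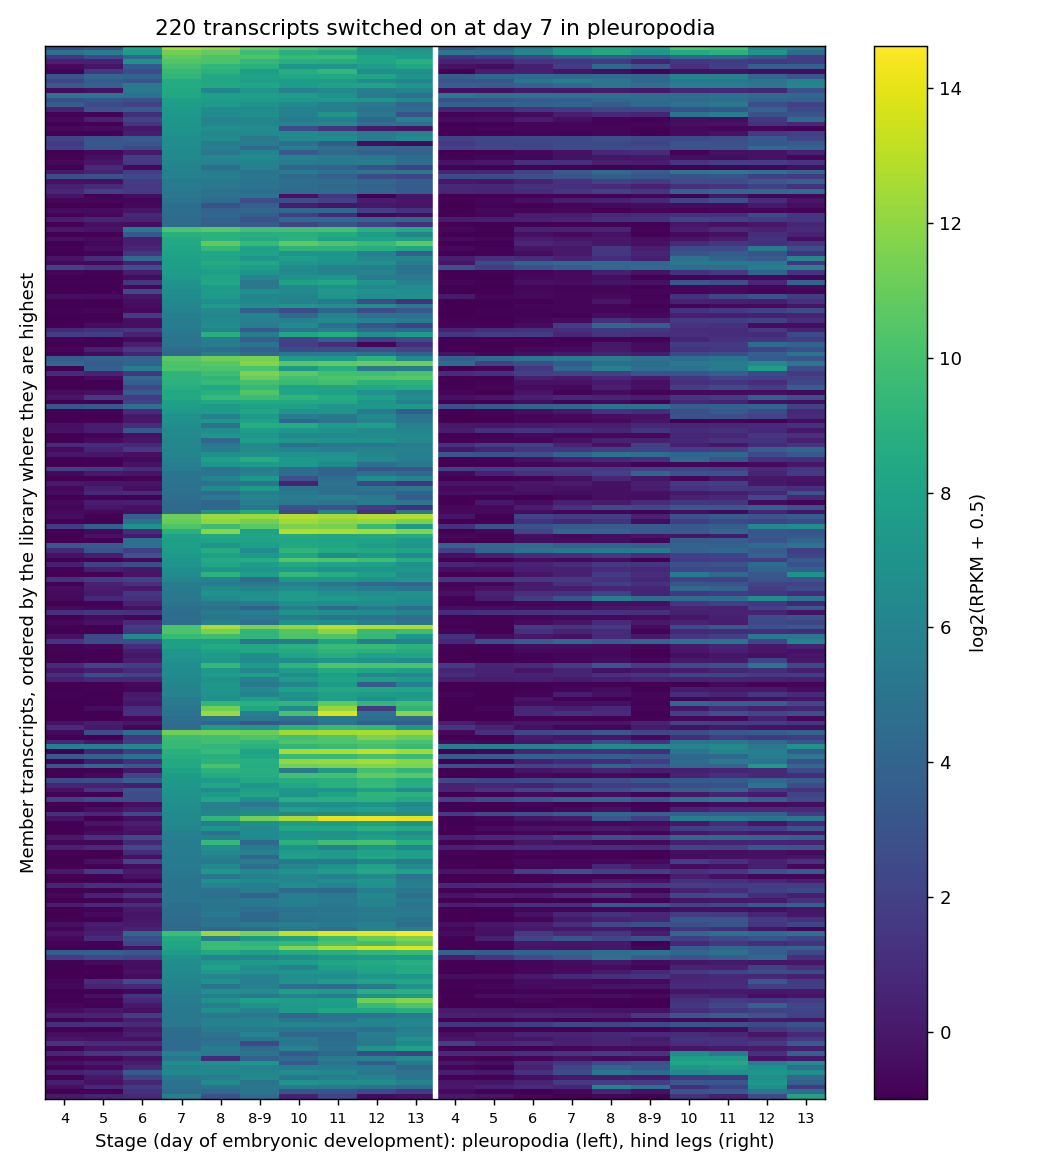
Level of each of the 220 transcripts as log2(RPKM + 0.5), 1 line per transcript and 1 column per library, with the 10 pleuropodia libraries left of the 10 leg libraries. The step at day 7 is what the selection fixed, and what follows it differs between transcripts, with 38 highest at day 7 and 112 highest at days 10 to 13.

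The comparison of the tissues after day 7 used only libraries that had no part in the selection. The test was limma on log2(RPKM + 0.5) after scaling by trimmed means (TMM), fitted over the 12404 transcripts with at least 1 RPKM in at least 2 of 13 libraries, with Benjamini-Hochberg adjustment over all of them and a threshold of 0.05. All 220 members passed this filter, so none was left out. At days 8 and 8-9, 215 of the 220 were higher in pleuropodia than in legs, where 18.3% of all tested transcripts were, and none was lower, where 13.0% of all were. At an unadjusted p under 0.05 the count of lower members was also 0, as it was by limma-voom on the recovered reads. At days 10 to 12, 199 members were higher in pleuropodia, where 27.0% of all tested transcripts were, and 2 were lower, where 27.1% were. The median log2 difference of the members was 6.19 at days 8-9 and 5.33 at days 10 to 12, beside -0.03 over all tested transcripts in both periods. The member calls of both periods were shared by 196 transcripts, 19 were called at days 8-9 alone, 3 at days 10 to 12 alone, and SgreTa0014537 and SgreTb0006930 at neither. In 181 members every pleuropodia library of days 8 to 13 lay above every leg library of those days. The share of all transcripts separated in this way was not counted, so this number is a description of the members only.

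**Figure D3:**
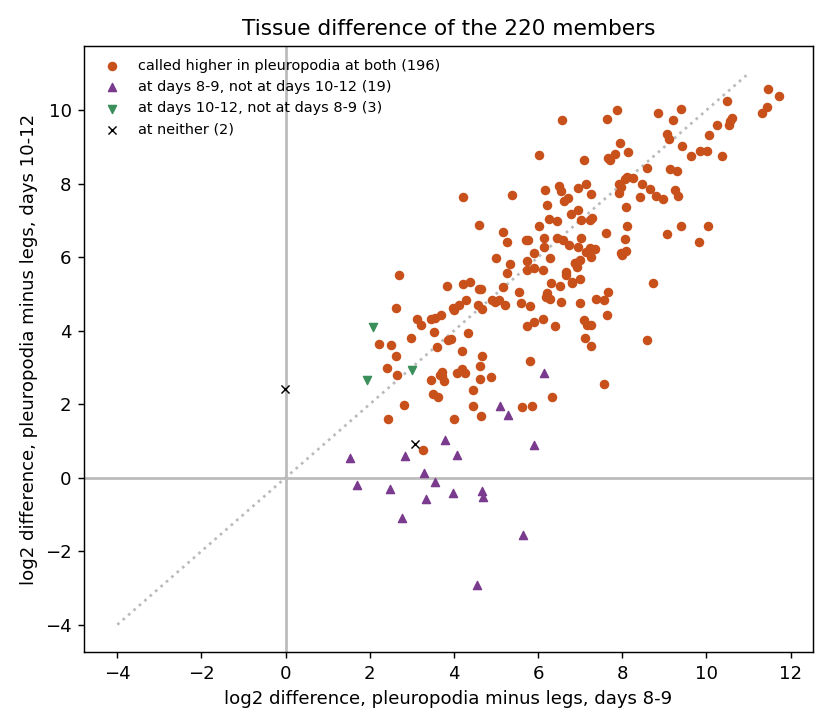
Log2 difference between pleuropodia and legs (log2(RPKM + 0.5) after TMM scaling) at days 10 to 12 against that at days 8-9, 1 point per member, marked by the period in which it was called higher in pleuropodia. The 196 members called in both periods lie at high values on both axes, the dotted line marks equal differences, and 19 members were called at days 8-9 alone.

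In the lists used here, 39 of the 220 members carry a name or a protein domain and 13 are listed without a name. The other 168 are in none of these lists, which do not hold every transcript that the study names. The lists were drawn up from days 10 to 12 of these same libraries, so their counts at these days are no independent evidence of direction. The names Sg-fdl, Sg-idgf-1, Sg-hex, Sg-cht5-2, Lyz-like-1 and LyzI-4 were assigned by the fold between the tissues at days 10 to 12. Each went to the only transcript whose fold matches that given for the gene. The lists by role hold 74 transcripts, of which 37 were members. They hold only transcripts that were paired with an identifier here, so their totals are not those of the study's gene families.

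Of 6 listed lysozymes, enzymes that cut the peptidoglycan of bacterial cell walls, 4 were members, and all 4 were higher in pleuropodia in both periods. The C-type lysozyme LyzC-1 (SgreTa0007897) had 0.254 RPKM in pleuropodia of day 6 and 84.9 RPKM at day 7. It then had 628, 2570.4, 6621, 17086, 19649.6 and 17116 RPKM in pleuropodia of days 8, 8-9, 10, 11, 12 and 13, against 9.00, 2.85, 48.5, 48.4, 31.9 and 37.5 RPKM in legs of those days. Every pleuropodia library lay above every leg library, and the log2 difference at days 10 to 12 was 8.87 ± 0.59 (SE, n = 3 each, limma adjusted p = 8.0e-07). LyzC-1 was also one of the 5 members with the highest increase within the glands, by 3.80 ± 0.65 on the log2 scale from days 8-9 to days 10 to 12 (limma adjusted p = 0.0055).

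The I-type lysozyme LyzI-1 (SgreTa0017707) started higher and wavered. It had 480.4 RPKM at day 7 and 3717, 253, 7292, 6709, 6136 and 3409.8 RPKM in pleuropodia of days 8, 8-9, 10, 11, 12 and 13, against 16.9, 9.41, 9.64, 18.7, 8.25 and 7.26 RPKM in legs. The library of day 8-9 stood below both its neighbours by a wide margin, so the difference from legs at days 8-9 had an SE of 1.16 about 6.56 (limma adjusted p = 0.0017). At days 10 to 12 it was 9.74 ± 0.94 (limma adjusted p = 1.2e-05). LyzC-2 (SgreTa0008528) differed by 7.63 ± 0.46 and LyzI-3 (SgreTb0006243) by 6.16 ± 0.80 at those days (limma adjusted p = 3.8e-07 and 9.5e-05), and the leg library of day 12 had 40.7 RPKM of LyzI-3 where days 10 and 11 had 5.08 and 5.05 RPKM. The 2 listed lysozymes outside the selection were Lyz-like-1, which reached 11.7 RPKM at day 7, and LyzI-4, which was called lower in pleuropodia in both periods. Both were named by their fold at days 10 to 12, so their direction at those days was fixed by the match.

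Only 2 of the 6 listed chitin enzymes were members. Sg-fdl (SgreTa0017729) is a hexosaminidase, named after a *Drosophila* enzyme that trims glycans, and had 62.0 RPKM in pleuropodia of day 7 and 25.3, 21.9, 38.8 and 119 RPKM at days 10, 11, 12 and 13, against 1.33, 1.50, 3.24 and 3.18 RPKM in legs of days 10 to 13. Sg-idgf-1 (SgreTd0003949), an imaginal disc growth factor of the chitinase family whose *Drosophila* relatives lack chitinase activity, had 49.4 RPKM at day 7 and 55.1, 87.1, 59.9 and 43.7 RPKM at days 10 to 13, against 2.64, 3.27, 3.73 and 1.56 RPKM in legs. At days 10 to 12 the log2 differences were 4.12 ± 0.40 for Sg-fdl and 4.76 ± 0.32 for Sg-idgf-1 (limma adjusted p = 1.3e-05 and 8.5e-07). Because these names were matched by the fold at days 10 to 12, those differences are no independent result for the named genes. Both transcripts were also called higher in pleuropodia at days 8-9, which the match did not use. Neither was among the members called between days 10 to 12 and days 8-9. The enzymes that act on chitin in the other 4 transcripts had other onsets. Chitinase Sg-cht5-1 had 572 RPKM in pleuropodia already at day 6 and 83.1 RPKM at day 7, and hexosaminidase Sg-nag2 had 183 RPKM at day 6 and 819 RPKM at day 7, a 4.48-fold step.

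Of 15 listed serine proteases, 11 were members, and all 11 were higher in pleuropodia in both periods. Most are named after Easter and Snake, which in *Drosophila* are clip-domain proteases acting in a cascade before Toll signalling. From day 10 on the trypsin-like SgreTa0001636 had the highest level of the 11, with 535, 775 and 266 RPKM in pleuropodia of days 7, 8 and 8-9 and 6511, 6754, 9470.2 and 5849 RPKM at days 10, 11, 12 and 13. In legs of days 10 to 13 it had 30.7, 66.3, 51.1 and 11.1 RPKM, and the log2 difference at days 10 to 12 was 7.90 ± 0.49 (limma adjusted p = 4.9e-07). It had the highest increase of all members within the glands between the periods, 4.48 ± 0.54 on the log2 scale (limma adjusted p = 9.6e-04).

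The 8 Easter-like members had between 23.1 and 717 RPKM at day 7, and all were at or under 2.85 RPKM in pleuropodia of days 4 to 6. SgreTa0003661 had the highest levels among them, with 1252, 1291 and 1455 RPKM in pleuropodia of days 10, 11 and 12, against 31.4, 35.3 and 21.9 RPKM in legs. SgreTa0006780 was the only protease whose change between the periods was called lower in pleuropodia than in legs (-2.81 ± 0.54 on the log2 scale, limma adjusted p = 0.016), with 189.9, 326, 126, 139 and 45.7 RPKM in pleuropodia of days 8, 8-9, 10, 11 and 12, against 1.86, 1.59, 6.17, 9.78 and 5.05 RPKM in legs. That call was lost without legs of day 8 or 8-9 or pleuropodia of day 8-9, and by limma-voom. Whether transcripts of this group that bear the same name, such as SgreTa0007424, SgreTa0007425 and SgreTa0007426, share reads was not tested. The Snake-like SgreTa0017715 had 340.4 RPKM at day 7 and 2560.3, 3024 and 3258 RPKM in pleuropodia of days 10, 11 and 12, against 18.8, 16.8 and 176 RPKM in legs of those days, the leg library of day 12 standing apart (log2 difference 6.84 ± 0.88, limma adjusted p = 8.8e-05).

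Serpins, which trap serine proteases, appeared beside them, with 2 of 3 listed serpins among the members. The Serpin 88E-like SgreTa0006539 was one of the 10 members with the highest level at day 7, 1272 RPKM, after 129.9 RPKM at day 6. It had 2966, 2719, 772 and 161 RPKM in pleuropodia of days 10, 11, 12 and 13, against 9.50, 12.8, 74.9 and 105 RPKM in legs, so that the tissues drew together by day 13. The Serpin 27-like SgreTa0009747 stayed high, with 599, 1326, 1239 and 1169 RPKM in pleuropodia, against 5.65, 7.18, 30.6 and 4.89 RPKM in legs. The log2 differences at days 10 to 12 were 7.01 ± 0.84 for Serpin 88E-like and 7.05 ± 0.77 for Serpin 27-like (limma adjusted p = 5.5e-05 and 2.9e-05).

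Of 11 listed metallopeptidases and exopeptidases, which cut peptides inside the chain or from its ends, 5 were members. The serine carboxypeptidase-type SgreTa0017657 was one that continued upward late, with 45.8 RPKM at day 7 and 201, 225, 2287 and 3365 RPKM in pleuropodia of days 10, 11, 12 and 13, against 1.95, 2.89, 2.09 and 3.09 RPKM in legs (log2 difference at days 10 to 12 of 7.99 ± 0.79, limma adjusted p = 1.3e-05). The angiotensin-converting enzyme-like SgreTa0017728 had its highest level, 365 RPKM, at day 7, with 72.4, 148, 59.2, 81.2, 47.7 and 61.9 RPKM in the pleuropodia libraries that followed. The aminopeptidase N-like SgreTb0018983 had the smallest difference between the tissues among the peptidases (2.74 ± 0.48 at days 10 to 12, limma adjusted p = 7.2e-04), and at day 13 it had 14.0 RPKM in pleuropodia and 32.5 RPKM in legs.

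Lipid transfer and lipid enzymes had 5 of 6 listed transcripts among the members, all higher in pleuropodia in both periods. Of 3 transcripts named after the alpha-tocopherol transfer protein, a carrier of vitamin E in mammals, SgreTa0004599 had 24.9 RPKM at day 6, 2420.4 RPKM at day 7 and 5474, 5968 and 6103 RPKM in pleuropodia of days 10, 11 and 12, against 5.96, 9.36 and 11.6 RPKM in legs (log2 difference 9.91 ± 0.60, limma adjusted p = 4.0e-07). SgreTa0005752 had a similar level at day 7, 1751 RPKM, but 721, 776, 286 and 207 RPKM at days 10, 11, 12 and 13. CYP4G102 (SgreTa0006282) belongs to the cytochrome P450 family that makes cuticular hydrocarbons, the waterproofing of insect cuticle. It was listed at 0 in pleuropodia of days 4 and 5, had 0.119 RPKM at day 6 and 148 RPKM at day 7, and then had 371, 419, 1439, 1277, 873 and 410.4 RPKM, against 0.235, 0.0171, 2.77, 3.14, 2.82 and 11.2 RPKM in legs. Its difference at days 10 to 12 had a small error (9.01 ± 0.19, limma adjusted p = 1.6e-09), and it was called higher at days 10 to 12 than at days 8-9 (2.01 ± 0.22, limma adjusted p = 4.7e-04). The *waterproof*-like fatty acyl-CoA reductase SgreTa0004278 had 515 RPKM at day 7 and 519.8 to 1027 RPKM later.

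The aquaporin SgreTa0017577, a water channel, was the only member of 4 listed ion and water transporters. It had 1.43, 0.531 and 0.0885 RPKM in pleuropodia of days 4, 5 and 6, 21.7 RPKM at day 7 and 194, 144, 537, 730.2, 639 and 143 RPKM in pleuropodia afterwards. Legs had 0.0870 to 0.571 RPKM over days 8 to 13, and the log2 difference at days 10 to 12 was 10.02 ± 0.38 (limma adjusted p = 1.7e-08). The V-ATPase proteolipid subunit and the Na/K ATPase alpha subunit, which pump ions in many tissues, were outside the selection with day 7 levels of 3.37 and 1.24 times their highest level of days 4 to 6.

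The lysosomal enzyme alpha-N-acetylgalactosaminidase (SgreTa0007886) removes end sugars from glycans. On the log2(RPKM + 0.5) scale of the test, it had the largest difference between the tissues at days 10 to 12 among the members. It had 0.0186, 0.0186, 28.0 and 1987 RPKM in pleuropodia of days 4, 5, 6 and 7 and 5202, 3824 and 4092 RPKM at days 10, 11 and 12, against 3.03, 4.73 and 3.80 RPKM in legs (10.57 ± 0.55, limma adjusted p = 1.6e-07). It was the only member of 6 listed lysosome transcripts. None of 4 listed transcripts of sugar and energy metabolism and none of 4 of redox and iron was a member, although all 8 were higher in pleuropodia in both periods.

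Among proteins of matrix and surface, the chitin-binding Peritrophin-A protein SgreTa0008851 had 13.3 RPKM at day 6, 2358 RPKM at day 7 and 7305, 6235 and 6969 RPKM in pleuropodia of days 10, 11 and 12, against 7.19, 11.7 and 8.46 RPKM in legs (10.10 ± 0.59, limma adjusted p = 3.4e-07). A collagen (SgreTa0003175), a protein of basement membranes, had 356 RPKM at day 7, 529 and 461 RPKM at days 8 and 8-9, and 4604, 4972, 6087 and 3712 RPKM at days 10 to 13. Its increase within the glands was 3.83 ± 0.41 on the log2 scale (limma adjusted p = 4.5e-04), and legs of days 10 to 12 had 21.5, 45.5 and 29.8 RPKM (difference 7.98 ± 0.36, limma adjusted p = 5.8e-08). Collagen is also made by haemocytes, and the part of these cells in its levels was not tested. The recognition protein GNBP3 (SgreTa0009559), which binds fungal glucans in *Drosophila*, was the only member of 3 listed transcripts of melanization and recognition, with 335, 489 and 706 RPKM in pleuropodia of days 10, 11 and 12, against 5.90, 6.56 and 33.7 RPKM in legs (5.99 ± 0.68, limma adjusted p = 3.6e-05).

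Both listed chemosensory transcripts were members. The OS-D-type pheromone-binding protein A10 (SgreTa0007025), one of the small soluble proteins that carry hydrophobic molecules, had 344 RPKM at day 7 and 1701, 1208 and 764 RPKM at days 10, 11 and 12, against 1.33, 2.33 and 1.64 RPKM in legs (9.61 ± 0.44, limma adjusted p = 5.7e-08). The sensory neuron membrane protein 1-like SgreTa0009515 had 561 RPKM at day 7 and 1002, 1229.8 and 1335 RPKM at days 10, 11 and 12, against 2.41, 4.09 and 3.48 RPKM in legs.

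**Figure D4:**
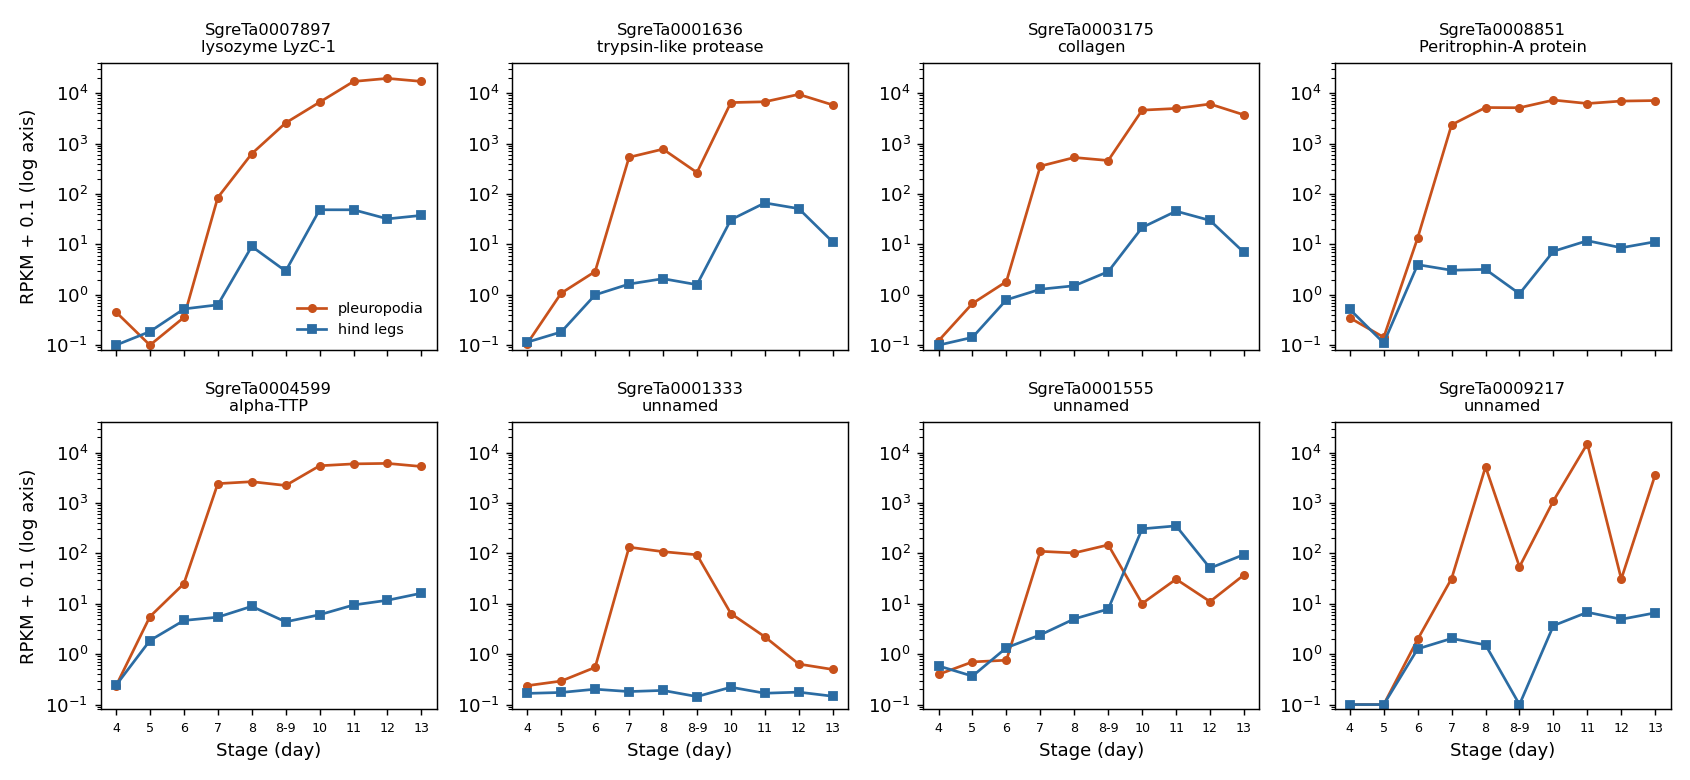
RPKM + 0.1 on a log axis by stage for 8 members, pleuropodia and hind legs as separate lines with 1 library per point. LyzC-1 reaches 19649.6 RPKM at day 12, SgreTa0001333 is at 0.397 RPKM in pleuropodia of day 13, SgreTa0001555 is higher in legs over days 10 to 13, and SgreTa0009217 has 15018 RPKM in pleuropodia of day 11 and 30.9 RPKM at day 12.

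Some members without a name were also abundant. SgreTa0017702 had 18.5 RPKM in pleuropodia of day 6 and 900.4 RPKM at day 7, then 4915, 2987, 10273, 16726, 18559 and 25227 RPKM, against 2.26, 0.648, 17.2, 29.7, 22.2 and 28.4 RPKM in legs. SgreTa0005052, listed at 0 in both tissues at days 4 and 5, had 273 RPKM at day 7 and 3364, 7504, 12985 and 15886 RPKM in pleuropodia of days 10, 11, 12 and 13, against 10.3, 17.4, 12.5 and 16.6 RPKM in legs. SgreTa0007042 had 2.73 RPKM at day 6, 1234 RPKM at day 7 and 4516 to 8588 RPKM over days 10 to 12, with 10.38 ± 0.70 as its log2 difference from legs (limma adjusted p = 9.3e-07). All 13 members listed without a name were higher in pleuropodia in both periods.

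The second question was how the members moved within the glands once they were on. Between days 10 to 12 and days 8-9, 39 of 220 were higher, where 9.21% of all tested transcripts were, and 15 were lower, where 6.33% were. The median log2 difference of the members was 0.43, beside 0.01 over all. Beside SgreTa0001636, collagen and LyzC-1, the highest increases were in 2 unnamed transcripts, SgreTa0005052 (3.52 ± 0.54, limma adjusted p = 0.0032) and SgreTa0017395 (3.40 ± 1.01, limma adjusted p = 0.046). SgreTa0017395 had 392 RPKM at day 7, 51.4 RPKM at day 8 and then 162, 228, 794, 1992 and 3083 RPKM, and its call was lost in 13 alternatives, among them 9 that left out 1 library. These counts depend on single libraries: without pleuropodia of day 8-9 they were 20 higher and 3 lower, without pleuropodia of day 12 they were 25 and 8, and without legs of day 12, which enter through the shared estimate of spread, 61 and 24. Without pleuropodia of day 8, 9 were lower, and without TMM scaling 27 were higher and 23 lower.

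The members that fell included some that were on for 3 libraries only. SgreTa0001333 had 133, 108 and 93.5 RPKM in pleuropodia of days 7, 8 and 8-9 and 6.30, 2.11, 0.537 and 0.397 RPKM at days 10, 11, 12 and 13, while legs stayed between 0.0440 and 0.121 RPKM in all libraries. Its difference between the periods was -4.94 ± 0.56 (limma adjusted p = 6.7e-04). SgreTa0002438 had 36.3, 28.4 and 32.0 RPKM in the same 3 libraries and 0.313, 2.19, 0 and 0.426 RPKM afterwards (-4.76 ± 0.64, limma adjusted p = 0.0016). SgreTa0017627 had 24.9, 6.85 and 13.9 RPKM and then at most 0.639 RPKM (-3.12 ± 0.35, limma adjusted p = 5.8e-04). SgreTa0016820 fell by 4.31 ± 1.0 on the log2 scale and SgreTa0008316 by 4.14 ± 1.06 (limma adjusted p = 0.019 and 0.027), and both calls were lost without pleuropodia of day 8, of day 8-9 or of day 12, that of SgreTa0008316 also without day 10. The abundant SgreTa0007746 had 1557, 2418 and 2737 RPKM at days 7, 8 and 8-9 and 176, 157, 511 and 89.2 RPKM at days 10 to 13 (-2.96 ± 0.55, limma adjusted p = 0.0077, not called without pleuropodia of day 8-9). No name is attached to any of these transcripts in the lists used here.

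Some members swung between neighbouring stages rather than following a trend. In 22 of the 220 at least 1 pair of neighbouring pleuropodia libraries of days 8 to 13 differed by 10-fold or more. SgreTa0009217 had 31.6 RPKM at day 7 and 5217, 54.0, 1105, 15018, 30.9 and 3636 RPKM in pleuropodia of days 8, 8-9, 10, 11, 12 and 13. SgreTa0013418 had 34.6 RPKM at day 7 and then 2532, 316, 86.8, 4366, 2.55 and 577 RPKM. Both were high at days 8, 11 and 13 and low at day 12. Legs of days 8 to 13 had 1.43, 0, 3.58, 6.69, 4.83 and 6.51 RPKM of SgreTa0009217 and 1.14, 0.0705, 0.471, 1.38, 0.757 and 1.04 RPKM of SgreTa0013418. The leg values of day 12 were also below those of days 11 and 13, but by far less than in pleuropodia. Among all members, 9 were at least 3 times lower in pleuropodia of day 8-9 than at both day 8 and day 10, 2 were at least 3 times higher there, and 6 were at least 3 times lower at day 12 than at both day 11 and day 13. With 1 library per stage, a swing of this kind cannot be told apart from a difference between the pools that were dissected, and day 8-9 also cannot be told apart from its sequencing centre.

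The last question was whether the members also appeared in legs. Between legs of days 10 to 12 and legs of days 4 to 6, 136 of the 220 were higher, where 20.6% of all tested transcripts were, and 1 (SgreTa0017510) was lower, where 16.3% were. The median log2 difference of the members was 1.73, beside 0.03 over all. Without legs of day 12 the count of higher members was 125, and without legs of day 4 it was 99. Most of these leg levels were small beside those of the glands: of the 136, 32 had a leg mean at days 10 to 12 under 1% of the pleuropodia mean, 57 had 1% to under 10%, and 47 had at least 10%. In 28 of the 136 the leg mean was at least 20 RPKM. For LyzC-1 the log2 difference within legs was 5.99 ± 0.59 (limma adjusted p = 5.0e-05), while its leg mean was 42.9 ± 9.5 RPKM, against 14452 ± 6902 RPKM in pleuropodia (SD, n = 3 each).

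The median leg level of the most abundant members was a small percentage of the pleuropodia level at each stage, but not every one was low. SgreTa0005843, described below, had 1260 and 1050 RPKM in legs of days 10 and 11, near or above its level in pleuropodia. At day 7 the selection itself limited the leg level. For members with at least 500 RPKM in pleuropodia, the median leg level was 0.194%, 0.211%, 0.0772%, 0.305%, 0.242%, 0.272% and 0.201% of that in pleuropodia at days 7, 8, 8-9, 10, 11, 12 and 13 (26 to 43 members a stage). The lowest 10% of these members were at or under 0.0576% at day 7 and 0.0904% at day 12. The part played in these leg values by RNA or reads of pleuropodia was not tested.

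**Figure D5:**
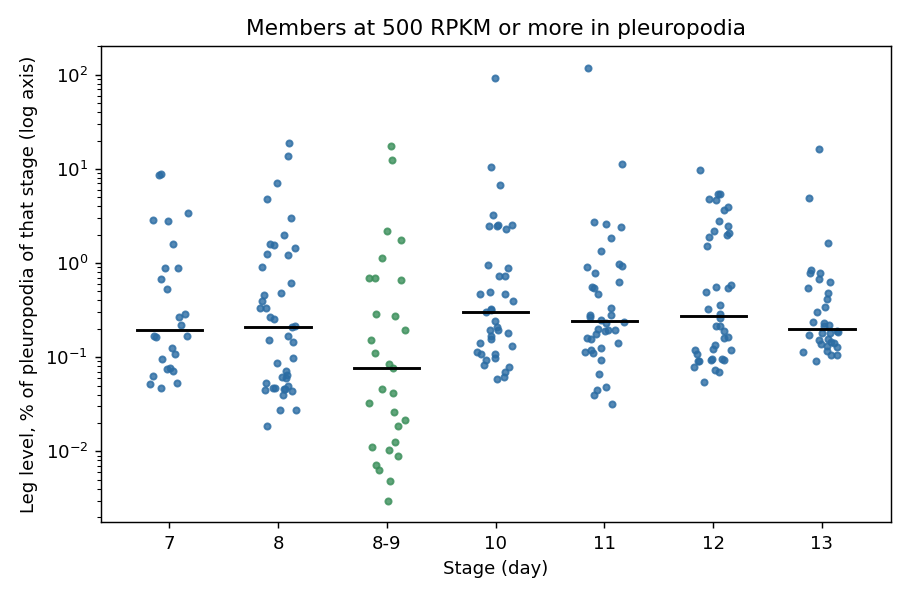
Leg level as a percentage of the pleuropodia level of the same stage, on a log axis, for members with at least 500 RPKM in pleuropodia, 1 point per member and stage and a bar at the median (day 8-9 in green), with values of 0 drawn at 0.003%. Medians run between 0.0772% at day 8-9 and 0.305% at day 10.

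A smaller number of members came on in legs at levels like those of pleuropodia, only later. SgreTa0007821 had 66.4, 72.9, 64.2, 46.5, 43.5, 45.6 and 20.6 RPKM in pleuropodia of days 7, 8, 8-9, 10, 11, 12 and 13, against 4.21, 16.5, 9.50, 141, 195, 116 and 26.0 RPKM in legs. Within legs it had the largest difference of all members between days 10 to 12 and days 4 to 6 (7.59 ± 0.30, limma adjusted p = 3.4e-07), and at days 10 to 12 it was lower in pleuropodia than in legs (-1.09 ± 0.30, limma adjusted p = 0.0102, not called with a pseudocount of 0.1). SgreTa0001555 had 102, 147, 10.0, 30.7, 11.0 and 37.2 RPKM in pleuropodia of days 8, 8-9, 10, 11, 12 and 13, against 4.91, 7.75, 307, 351, 50.9 and 94.6 RPKM in legs, so the order of the tissues turned between days 8-9 and 10. It was the other member called lower in pleuropodia at days 10 to 12 (-2.92 ± 0.60, limma adjusted p = 0.0021). SgreTb0019643 had 91.3, 75.2 and 38.9 RPKM in pleuropodia of days 10, 11 and 12, against 85.8, 115 and 148 RPKM in legs, and differed by 6.36 ± 0.40 within legs (limma adjusted p = 6.8e-06).

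The 10 members with their highest value in legs were SgreTa0001555, SgreTa0003791, SgreTa0007821, SgreTa0013341, SgreTa0014537, SgreTa0016370, SgreTa0017770, SgreTa0017793, SgreTb0006930 and SgreTb0019643. None has a name in the lists used here, and for several a single leg library decided the order. SgreTa0017793 had 251 RPKM in legs of day 13 but at most 5.82 RPKM in the other leg libraries, and 52.8 RPKM in pleuropodia of day 7. SgreTb0006930 had 212 and 202 RPKM in legs of days 10 and 11 and at most 0.498 RPKM in the other leg libraries. SgreTa0003791, SgreTa0013341 and SgreTa0014537 were highest in legs of day 12, at 105, 143 and 105 RPKM. In all, 15 members were at least 3 times higher in legs of day 12 than in legs of both day 11 and day 13.

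The most abundant member at day 7, SgreTa0005843, was one of those that legs shared. It had 4.66, 7.03 and 280.1 RPKM in pleuropodia of days 4, 5 and 6 and 5786 RPKM at day 7. Thereafter it had 4148, 1973, 1355, 882, 183 and 107 RPKM in pleuropodia of days 8, 8-9, 10, 11, 12 and 13, against 291, 245, 1260.1, 1049.9, 69.8 and 51.4 RPKM in legs. The ranges of the tissues overlapped at days 10 to 12, and the difference was within its error (1.02 ± 1.02, limma adjusted p = 0.42).

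Changes over time were compared between the tissues by the difference of the differences. From days 8-9 to days 10 to 12, 21 members changed less upward or more downward in pleuropodia than in legs, where 3.57% of all tested transcripts did, and 4 did the opposite, where 1.29% did. The median of the members was -0.79, beside -0.01 over all. SgreTa0001555 (-7.46 ± 0.95, limma adjusted p = 0.0020) and SgreTa0016820 (-7.18 ± 1.42, limma adjusted p = 0.018) had the lowest values of all members, but SgreTa0001555 was not called without the pair of day 8-9, nor SgreTa0016820 without any 1 of the 4 libraries of days 8 and 8-9. SgreTa0017510 went the other way (2.26 ± 0.25, limma adjusted p = 0.0011), with 40.9, 50.0, 134, 101 and 95.4 RPKM in pleuropodia of days 8, 8-9, 10, 11 and 12, against 1.88, 1.72, 0.784, 0.964 and 0.907 RPKM in legs, where it was also the 1 member lower at days 10 to 12 than at days 4 to 6 (-0.51 ± 0.16, limma adjusted p = 0.027, not called without any 1 of legs of days 4, 5, 6, 10 or 11). These counts depend on single libraries: the lower count was 37 without legs of day 12 and 8 without legs of day 8-9, and the higher count was 8 without pleuropodia of day 8 and 1 without legs of day 8, legs of day 8-9 or pleuropodia of day 12. Without TMM scaling 2 were higher and 32 lower, and by limma-voom on the recovered reads 1 and 8. With day as a block in the fit, which pairs the tissues by day, they were also 1 and 8.

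The selection used neither the length nor the identifier number of the members. Their recovered lengths had a median of 2003.5 bases (322 to 9897), against 1734.5 bases for all other transcripts. Of the 194 members with identifiers of the SgreTa series, which holds 11069 transcripts, 33 lay among the 141 transcripts numbered SgreTa0017600 to SgreTa0017799. What this numbering stands for is not given in the sources used here.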

How the data were processed

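Poly(A)-enriched RNA of pooled pleuropodia and hind legs was sequenced by the authors in 20 libraries. Reads of 9 stages were single reads, and those of day 8-9 came from a second centre and were trimmed with Trimmomatic. The authors aligned the reads locally to a transcriptome assembled from embryos with Bowtie2 2.2.5, kept transcripts that passed HTSFilter and computed the deposited RPKM with NOISeq. The methods and the sample labels differ on whether 1 or both mates of day 8-9 were used. A second deposited table, holding the authors' own comparison of the tissues at days 10 to 12 (means, log2 ratio, difference, probability and ranking), was not used.

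All values here come from the RPKM matrix. Every value in it is a whole number of reads for some length and depth within 0.05 reads (100% of values over 12988 transcripts), which gave the lengths and depths. Of the values, 15903 are listed at 0. The 20 columns were taken from the sample descriptions. For tests, RPKM was scaled by TMM (30% and 5% trimmed), 0.5 was added, and log2 values of 13 libraries in 5 groups were fitted together in limma 3.58.1 (R 4.3.3) with a trend, for transcripts with at least 1 RPKM in at least 2 libraries. Fold changes on this scale understate the change of low transcripts. No library used by the selection entered a test. The 5 contrasts were adjusted by Benjamini-Hochberg over 12404 transcripts each, and the code was tested on simulated data. Pleuropodia and legs of day 13 had no further library of that age and were not tested.

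The members, lists and tests were chosen with earlier results of these data known. The text names members in the lists used here and the 10 most abundant at day 7. It also names the 5 highest and 5 lowest called within the glands and the 5 highest called within legs. The 3 on each side of each threshold, those highest in legs and lists by role were named as well. Not every one is printed, and SgreTa0007746, SgreTa0017702, SgreTa0007042, SgreTa0017510, SgreTa0009217 and SgreTa0013418 are described at length because of their values. Alternatives were no TMM, a pseudocount of 0.1 or 1, no filter or 5 RPKM, 1 library left out at a time, no pair of day 8-9, day as a block, only the 6 libraries of days 10 to 12, other selection thresholds and, chosen after seeing the data, limma-voom on the recovered reads. Sequences of these transcripts were not analysed here.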

Additional observations from a re-analysis of the deposited data

Results flagged for a closer look

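The change from days 8-9 to days 10 to 12 differed between the tissues by the test of that difference in 21 members that were lower in pleuropodia than in legs and in 4 that were higher (limma adjusted p under 0.05). Of the 21, 18 were also called higher in legs at days 10 to 12 than at days 4 to 6, and 7 were called lower in pleuropodia at days 10 to 12 than at days 8-9. Of all 220 members, 136 and 15 had these calls. Both tests share libraries with the test of the change, so the overlaps are a description and not separate evidence.

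The libraries of day 13 entered no comparison. In pleuropodia of day 13 the members held 30.9% of the summed RPKM, against 0.448% in legs of day 13, and 107 of the 220 were at or above their day 7 level in pleuropodia. No group held the 4 samples needed to look for a single sample that stands apart.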

How the results depend on the processing

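The excess of members higher in pleuropodia kept its direction and its size within 1.5 times under every alternative of scaling, pseudocount, filter, fit and tool, without the pair of day 8-9, and for the 212 members selected on TMM-scaled values (190 to 200 at days 10 to 12 and 194 to 216 at days 8-9). Other counts moved more. Without TMM, 23 members were lower within the glands, and the change over time was called higher in pleuropodia for 2 and lower for 32. With a pseudocount of 0.1, 1 was lower than in legs at days 10 to 12, and the change was called higher for 1, and with a filter of 5 RPKM for 2. Without the pair of day 8-9, 20 were higher and 3 lower within the glands, 2 were lower within legs, and the change was higher for 1 and lower for 3. By limma-voom the change was higher for 1 and lower for 8. The cause was not tested.

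The stricter selection of 124 gave 118 higher at days 10 to 12, 122 at days 8-9, 25 higher and 7 lower within the glands, 76 higher and 0 lower within legs, and 9 with a lower change. The looser one of 409 gave 345 higher and 8 lower at days 10 to 12, 387 higher at days 8-9, 69 and 41 within the glands, 231 and 2 within legs, 10 and 48 for the change, and a share of 34.28% at days 10 to 12. These counts rose with the number of members but not in proportion to it, as with 118 of 124 against 345 of 409 higher at days 10 to 12. The cause was not tested.

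With 1 library left out at a time, the counts at days 10 to 12 were 194 to 202 higher and 2 to 3 lower, and at days 8-9 200 to 219 higher and 0 lower. Within the glands they were 20 to 61 higher and 3 to 24 lower, within legs 99 to 135 higher and 0 to 1 lower, and for the change 1 to 8 higher and 8 to 37 lower.

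Same-day libraries of the tissues deviated together by r = 0.584 at days 8 and 8-9, a single value by construction, since each group held 2 libraries. At days 10, 11 and 12 r was 0.217, -0.014 and 0.178, so not every pair was over 0.1 and the libraries were not treated as paired. With day as a replicate block, 200 members were higher and 2 lower at days 10 to 12, 209 and 0 at days 8-9, and the change was higher for 1 and lower for 8, with SgreTa0006780 and SgreTa0016820 no longer called. For the contrasts within a tissue no paired analysis was possible, because the groups compared share no day.

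Of 1030 alternatives to 49 differences of single transcripts, 977 kept direction and side of the threshold, 51 lost the call, 1 gained it and 1 turned (SgreTa0005843 at days 10 to 12, whose difference ran between -0.134 without legs of day 12 and 1.801 without pleuropodia of day 12). Without TMM the median of all transcripts moved by -0.56 and -0.34 between the tissues at days 10 to 12 and 8-9, by -0.41 within the glands, by -0.17 within legs and by -0.23 for the change. Depth limits values under about 0.1 RPKM, which are a few reads.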

Other observations

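The swings of SgreTa0009217 and SgreTa0013418 were shared by a transcript outside the selection. The peroxidase SgreTa0017700 had 17.9 RPKM in pleuropodia of day 7 and 2016, 108, 63.7, 2457, 103 and 1077 RPKM at days 8, 8-9, 10, 11, 12 and 13, high at days 8, 11 and 13 as in those members, against 0.848, 0.0409, 1.19, 1.75, 13.1 and 72.5 RPKM in legs. It was chosen after its values were seen, and no test was made.

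Late secretory transcripts with another onset stood beside the members. Myrosinase 1-like SgreTa0001321 had 0.334 RPKM in pleuropodia of day 7 and 1500, 1580, 3131 and 3760 RPKM at days 10, 11, 12 and 13, against 3.38, 4.66, 3.74 and 5.42 RPKM in legs. Chitinase Sg-cht5-1 (SgreTa0017664) had 572 RPKM at day 6, 83.1 RPKM at day 7, and 49.1, 709, 7102 and 15374 RPKM at days 10, 11, 12 and 13, against 167, 55.9, 15.4 and 26.7 RPKM in legs of days 10 to 13.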
